A study of Mus musculus with 8 samples.

Results

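The barcodes rich in Gsta3 are the cells in which transcripts of this gene made up 3% or more of the counted molecules. Gsta3 encodes an alpha-class glutathione transferase, and 157 of 1460 cell barcodes in the table met the rule, which also asks for 100 or more unique molecular identifiers (UMIs, each standing for 1 captured RNA molecule). These 157 were 11.3% (9.69 to 13.1) of the 1388 barcodes that reached 100 UMIs, with the exact Clopper-Pearson 95% interval in parentheses. They were compared with the 812 barcodes of the same least depth in which Gsta3 was under 1%, called Gsta3-low here, and the 419 barcodes from 1% to under 3% were kept apart. The members were chosen by their measured Gsta3 share, so values of Gsta3 are a description. All other genes were measured with the Gsta3 UMIs taken out of every total.

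The cells came from mouse stomach glands of 1 genotype, Atp4bCre; Rosa26NICD; Arid1aflox/flox, at the age of 23 weeks. The samples are labelled as stomach glands 1 to 8 of a mouse of this genotype, and the number of mice is not given. Cre is driven by the promoter of Atp4b, a proton pump gene of the acid-secreting parietal cells, switches on the intracellular domain of Notch from Rosa26 and deletes the floxed part of Arid1a, a subunit gene of a chromatin remodelling complex. Cells with high EPCAM, an epithelial surface protein, and low Sytox Blue, a dye of dead cells, were sorted and measured on the 10x droplet platform. All 8 samples share this genotype, with no control genotype among them, and the barcodes carry no sample mark, so the table counts as 1 sample without replicates and no test across samples was possible. Whether Cre had acted in a given barcode was not measured here.

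Alpha-class glutathione transferases join the tripeptide glutathione to reactive and lipid-derived compounds, and some members of the class also act as steroid isomerases. In the gut and liver they belong to the detoxifying enzymes that many epithelial cells keep at high levels. Their reaction depends on glutathione in its reduced state, which cells maintain with NADPH from enzymes such as the cytosolic isocitrate dehydrogenase Idh1.

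Rows of the table matched to the annotation lie on chromosome 1 between positions 3102016 and 89933290 of GRCm38 (GENCODE vM21), 711 of 779 complete gene rows. Totals are therefore totals over this stretch and not library depth. The members had a median of 308 UMIs (100 to 1082) and 78 genes, the Gsta3-low barcodes 270.5 UMIs (100 to 849) and 68 genes. Intervals below cover counting error only, and they are too narrow where a few barcodes hold most UMIs of a gene. Levels are given in CPM, the summed UMIs of a gene per 1000000 summed UMIs without Gsta3.

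Gsta3 (chromosome 1, 21240589 to 21265661, plus strand) varied without a break across barcodes. There were 269 barcodes between 1% and 2%, 150 between 2% and 3%, 61 between 3% and 4%, 38 between 4% and 5% and 24 between 5% and 6%. From 8% upward there were 11 barcodes, and the highest share was 12.3%, from 60 Gsta3 UMIs among 486. The nearest barcode inside the threshold had 9 Gsta3 UMIs among 300 (3.00%), the next 15 among 498 (3.01%), and the nearest outside had 10 among 334 (2.99%), so no gap marks the members off. Members held 5 to 64 Gsta3 UMIs each, with a median of 14 and a median share of 4.42%. Gsta3-low barcodes held 0 to 7, with a median of 1. The 157 members together held 43.6% of all Gsta3 UMIs of the table. Among barcodes of 100 to 200 UMIs, 6.36% (3.98 to 9.56) were members, against 12.6% (10.3 to 15.3) of those of 200 to 400 UMIs and 13.3% (9.90 to 17.3) of the deeper ones. The annotated antisense gene Gm28836 overlaps Gsta3 on the other strand. Whether the counting used strand is not given in the sources used here. Its alpha-class relatives on other chromosomes were not analysed here.

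**Figure D1:**
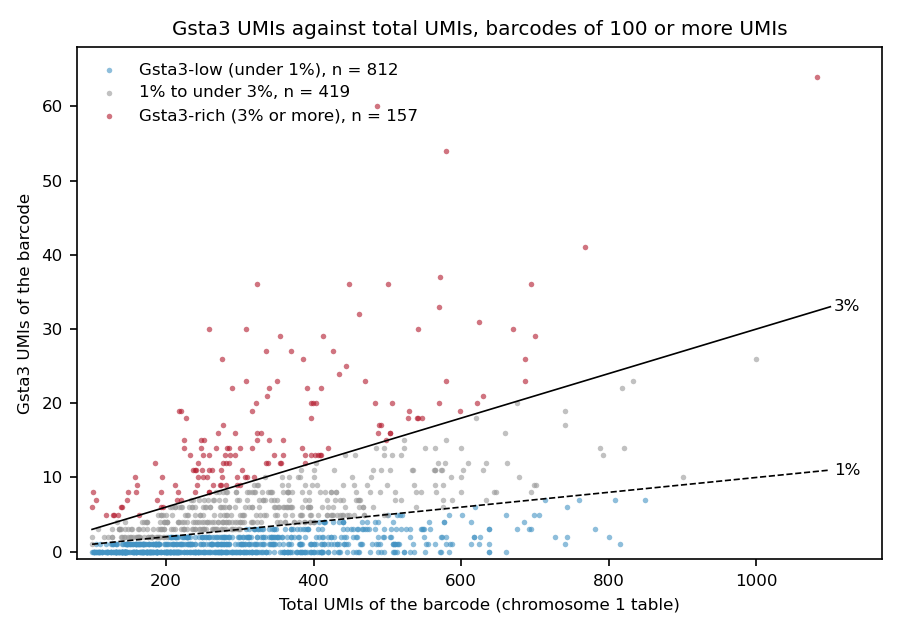
Gsta3 UMIs (vertical axis) against total UMIs (horizontal axis) of each of the 1388 barcodes with 100 or more UMIs, coloured by group. Lines mark Gsta3 shares of 3% (solid) and 1% (dashed), and the points spread over both lines without a gap.

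The region before the Gsta3 start site is shown because it is the regulatory sequence of the gene that defines these barcodes. It is the reference sequence from RefSeq (GRCm38.p6, chr1:21240335-21240584, plus strand), 250 bases that end at the base before the start site. Capitals mark a match to TGACNNNGC, the core of the antioxidant response element, which begins 121 bases before the start site.
Gsta3: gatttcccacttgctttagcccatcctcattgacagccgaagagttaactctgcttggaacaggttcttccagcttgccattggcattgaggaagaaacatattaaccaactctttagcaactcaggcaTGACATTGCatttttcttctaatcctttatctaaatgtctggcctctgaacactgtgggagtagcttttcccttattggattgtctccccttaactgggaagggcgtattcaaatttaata

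Searched on both strands, TGACNNNGC was present before the start sites of 47 of 384 genes of the table with a RefSeq entry (12.2%). It was present in 0 of the 16 matched genes that were 1.5-fold or more higher in the members, and in 0 of the 19 matched genes that were as much lower. Only genes with 50 or more UMIs in both groups together could be called. Of 169 such matched genes, 19 held the string (11.2%), so 0 of 16 is a small number to compare. Of 6 further strings searched, GTTAAT, a part of the HNF1 site, was present before Gsta3 (28 of 384 genes, 7.29%). The TATA box TATAAA (10.4% of genes), the nuclear receptor half-site AGGTCA (15.6%), the AP-1 site TGACTCA (3.39%), the CDX site TTTATGG (2.86%) and the HNF4 site CAAAGTCCA (0.521%) were not in this window. These matches describe letters in the window and do not show binding.

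The other genes that mark these barcodes were higher in the members as well. Slc9a4, which encodes a sodium/proton exchanger abundant in the stomach, reached 3976 CPM (3452 to 4558) in members and 1875 CPM (1706 to 2056) in Gsta3-low barcodes, a ratio of 2.12 (1.79 to 2.51, exact conditional binomial 95% interval). Members held 0 to 7 Slc9a4 UMIs with a median of 1, and Gsta3-low barcodes 0 to 5 with a median of 0, so the ranges overlap. Cyp27a1, the mitochondrial sterol 27-hydroxylase of bile acid synthesis, had 25 UMIs in members and 42 in Gsta3-low barcodes, a ratio of 2.78 (1.62 to 4.66). Ikzf2, a zinc-finger transcription factor, had 43 and 112 UMIs, a ratio of 1.79 (1.23 to 2.57). Xkr9, of the XK family of phospholipid scramblases, had only 14 and 17 UMIs, a ratio of 3.84 (1.75 to 8.28). These 4 genes had led a cluster rich in Gsta3 in an earlier treatment of the same barcodes, so their direction is not independent evidence. At least 1 UMI of any of the 4 was present in 119 of 157 members (75.8%, 68.3 to 82.3) and in 382 of 812 Gsta3-low barcodes (47.0%, 43.6 to 50.5).

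Of 222 genes with 50 or more UMIs in both groups together, 23 were 1.5-fold or more higher in the members (10.4% of the genes) and 21 were 1.5-fold or more lower (9.46%), together 44 genes or 19.8%. The median ratio over the 222 genes was 1.05. With Rpl37a, Rpl7 and Rpl31 also taken out of the totals, 15 genes were higher and 24 lower. These 3 ribosomal protein genes made up 38.0% of UMIs in members and 42.0% in Gsta3-low barcodes.

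Among the enzymes of oxidation, reduction and detoxification, 3 of the 8 listed with 50 or more UMIs were 1.5-fold or more higher and none lower. Of all 222 genes, 10.4% were higher and 9.46% lower. The median ratio of the list was 1.38 against 1.05 over all genes. Cyp27a1, 1 of the 3, was among the genes that had led the earlier cluster rich in Gsta3. The count and the median therefore include a gene that is not independent evidence. Idh1, which makes NADPH in the cytosol, reached 12353 CPM (11414 to 13348) in members and 6350 CPM (6036 to 6676) in Gsta3-low barcodes, a ratio of 1.95 (1.77 to 2.13). A member held 0 to 29 Idh1 UMIs with a median of 3, a Gsta3-low barcode 0 to 17 with a median of 1. Idh1 was detected in 143 of 157 members and 593 of 812 Gsta3-low barcodes. The third gene of the group past the fold beside Cyp27a1 and Idh1 was Rdh10, a retinol dehydrogenase that starts retinoic acid synthesis, with 624 and 1923 UMIs and a ratio of 1.51 (1.38 to 1.66). Rdh10 passed 1.5-fold in 6 of 13 alternatives, 1 of which left the groups unchanged, with ratios down to 1.27. Txndc9, a thioredoxin-domain protein gene, had a ratio of 1.25 (1.07 to 1.47). Pecr, a peroxisomal enoyl-CoA reductase gene, was at 0.751 (0.503 to 1.09), within counting error of equal levels. The Ugt1a genes, which encode glucuronosyltransferases, had too few UMIs for a ratio, with 2 of Ugt1a7c, 1 of Ugt1a6a and 1 of Ugt1a5 in members. They share most of their exons, so counting between them is uncertain.

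Transporter genes gave a similar count, with 3 of 8 higher, 1 lower and a median ratio of 1.48. The shares over all genes were 10.4% higher and 9.46% lower. Slc9a4, 1 of the 3, was also among the genes that had led the earlier cluster, so it is not independent evidence. Beside Slc9a4, the vacuolar proton pump subunit gene Atp6v1h was at 1.56 (1.19 to 2.03), with 77 UMIs in members and 230 in Gsta3-low barcodes. It passed 1.5-fold in 5 of 13 alternatives and was at 1.19 when membership began at 5%. Slc23a3, from the nucleobase and ascorbate transporter family, was at 1.55 (0.805 to 2.84) from 15 and 45 UMIs, within counting error. The exchanger gene Slc9a2, next to Slc9a4, had a ratio of 1.46 (0.835 to 2.44). Slc39a10, a zinc importer, was the lower gene at 0.631 (0.389 to 0.978), from 23 and 170 UMIs.

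Interleukin receptor genes lie beside Slc9a4 on chromosome 1. Il1r1 (40225080 to 40317257), the signalling receptor of interleukin 1, had 70 UMIs in members and 155 in Gsta3-low barcodes, a ratio of 2.11 (1.56 to 2.81). Il18rap (40515362 to 40551705), the accessory chain of the interleukin 18 receptor, ends 28.4 kb before Slc9a4 (40580081 to 40630725), and had 20 and 42 UMIs, a ratio of 2.22 (1.23 to 3.87). Il18r1, the binding chain of that receptor, lies between Il1r1 and Il18rap and was at 1.00 (0.725 to 1.37) from 50 and 232 UMIs. Neighbouring genes of the same stretch thus had unlike ratios. Il1rl2 had 3 UMIs in both groups together and Il1rl1 had 0.

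Of 4 measured genes of interferon and innate responses with 50 or more UMIs, 2 were 1.5-fold or more higher and none lower. Over all genes 10.4% were higher and 9.46% lower, and a list of 4 is short for a comparison. Ly96, the co-receptor of the endotoxin receptor TLR4, was at 1.56 (1.27 to 1.90), and Casp8, the initiator caspase of death receptors, at 1.53 (1.23 to 1.89). Each stayed past 1.5-fold in 8 of 13 alternatives, with lowest ratios of 1.27 and 1.32. Cflar, the inhibitor of Casp8, was at 1.06 (0.799 to 1.40).

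Genes of the cytoskeleton and of adhesion were mixed, with 3 of 9 higher, 1 lower and a median ratio of 1.02. Among all genes the shares were 10.4% higher and 9.46% lower. Tuba4a, an alpha-tubulin, had 405 and 1087 UMIs and a ratio of 1.74 (1.55 to 1.95). Vil1, the actin bundler villin of microvilli, had 289 and 814 UMIs and a ratio of 1.66 (1.44 to 1.90). Members held 0 to 12 Vil1 UMIs and Gsta3-low barcodes 0 to 9, with a median of 1 in each group. Tuba4a overlaps Stk16 and Vil1 overlaps Usp37 on the other strand, and these partners had ratios of 1.21 and 1.15. Dst, a linker of cytoskeletal filaments, was at 1.57 (1.10 to 2.20) and was at 1.09 against barcodes without a Gsta3 UMI. Pard3b, a cell polarity protein gene, was lower at 0.486 (0.226 to 0.933), from 10 and 96 UMIs. The fibronectin gene Fn1 had a ratio of 0.709 (0.510 to 0.966).

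Alpi, the intestinal alkaline phosphatase of the brush border, was higher in the summed counts, but few barcodes carried it. Its 54 UMIs in members came from 12 barcodes, 29 of them from 3, and its 116 UMIs in Gsta3-low barcodes came from 21, 80 of them from 3. The ratio of 2.17 (1.54 to 3.02) therefore rests on few barcodes. Alpi stood at 32.2 CPM in barcodes without a Gsta3 UMI, 761 (627 to 915) above 0 and under 1%, and 549 from 1% to under 3%. Members from 3% to under 5% stood at 782 (511 to 1146), close to Gsta3-low barcodes with a Gsta3 UMI. Members from 5% to under 8% stood at 1850, and the 11 members of 8% or more held 0 Alpi UMIs. With Alpi, Vil1, Tm4sf20 and Cps1 summed as the measured enterocyte markers, members were at 7624 CPM and Gsta3-low barcodes at 4992, a ratio of 1.53 (1.36 to 1.71). Tm4sf20, a membrane protein gene of enterocytes, was at 0.885 (0.645 to 1.19), and Cps1 had no UMI in members and 2 in Gsta3-low barcodes.

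Further genes past 1.5-fold were Nbeal1, at 1.81 (1.42 to 2.299), the DNA repair gene Nhej1, at 1.85 (1.06 to 3.12), and Kdelc1, an endoplasmic reticulum protein gene, at 1.79 (1.01 to 3.06). Nhej1 passed the fold in 11 of 13 alternatives, with ratios down to 1.36, and Kdelc1 in 12, down to 1.28. Nhej1 was at 3.43, 2.91 and 0.905 among barcodes of 100 to 200, 200 to 400 and 400 or more UMIs. Its direction thus turned in the deepest barcodes. Psmd1, a subunit of the regulatory particle of the proteasome, was at 1.64 (1.40 to 1.91), the only one of 11 proteasome and ubiquitin genes past the fold. The median ratio of that list was 1.05, as over all genes. Of 9 lipid and sterol genes, Cyp27a1 and Rdh10 were higher and none lower, with a median ratio of 1.11. Ikzf2 was the only one of 8 transcription factor genes past the fold, with a list median of 0.986. Of 7 glycosylation genes none was higher and Chpf was lower, with a median of 0.892. The counts of these lists stand beside 10.4% higher and 9.46% lower over all genes. Cyp27a1 and Ikzf2 in these counts are given markers, so they are not independent evidence.

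**Figure D2:**
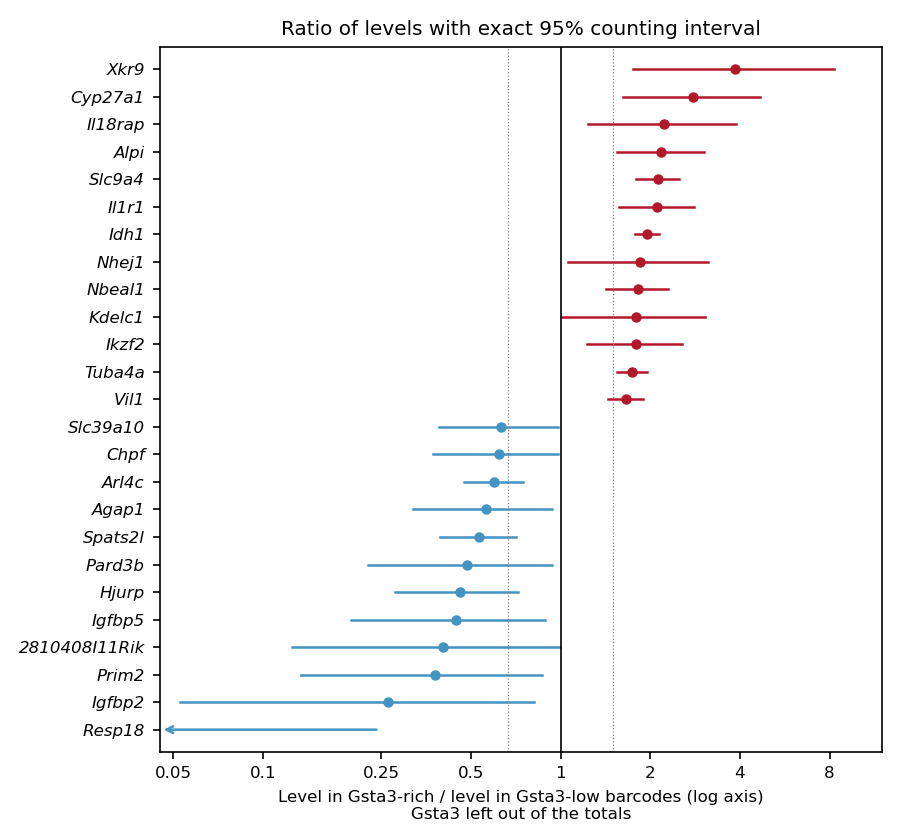
Ratio of the level in Gsta3-rich to the level in Gsta3-low barcodes (log axis) for Xkr9 and for the 12 highest and 12 lowest genes whose counting interval leaves out 1, with exact 95% intervals. Dotted lines mark 1.5-fold either way, and the arrow at Resp18 stands for 0 UMIs in members with the upper bound of its interval at 0.249.

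Genes of cell division had lower ratios in members. The 6 measured cycling markers (Mcm3, Prim2, Sgol2, Hjurp, Bard1 and Orc2) summed to 83 UMIs in members and 692 in Gsta3-low barcodes, 1602 CPM (1276 to 1986) against 2864 (2655 to 3086), a ratio of 0.559 (0.440 to 0.703). Hjurp, the chaperone of the centromeric histone, was at 0.460 (0.279 to 0.721), with 1 UMI each in 21 members. Prim2, a subunit of primase, was at 0.378 (0.134 to 0.863) from 6 and 74 UMIs, and was at 0.703 when membership began at 5%. Mcm3, of the replicative helicase, was at 0.660 (0.441 to 0.959) and passed the fold in 7 of 13 alternatives. Some members still carried these transcripts, since 58 of 157 (36.9%) had a UMI of at least 1 of the 6, against 339 of 812 Gsta3-low barcodes (41.7%).

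Nucleolar and translation genes differed by less than 1.5-fold, though some, such as Rpl37a, Eef1b2 and Ncl, were lower in members beyond counting error. None of the 11 nucleolar and Myc target genes and none of the 7 translation genes passed 1.5-fold in either direction, with median ratios of 0.970 and 0.977. Ncl, nucleolin, was at 0.860 (0.791 to 0.934), Hspd1, the mitochondrial chaperonin, at 0.954 (0.866 to 1.05) and Ptma at 1.05 (1.01 to 1.08). Rpl37a had a ratio of 0.860 (0.841 to 0.880) and Eef1b2, a translation elongation factor gene, 0.839 (0.801 to 0.879). Of 13 genes of the respiratory chain and mitochondrial ribosome list, only Idh1, itself a cytosolic enzyme, passed the fold, and the list median was 1.05. Cox5b, a cytochrome oxidase subunit, was at 1.05 (1.00 to 1.09).

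Genes of binding proteins for insulin-like growth factors were lower in members than in Gsta3-low barcodes as a whole, from few UMIs. Igfbp2 had 3 UMIs in members, all in 1 barcode, and 53 in Gsta3-low barcodes, a ratio of 0.264 (0.0528 to 0.814). Barcodes of 1% to under 3% also held only 3 UMIs (21.4 CPM against 57.9 in members), and against them the direction turned, at 2.71. Igfbp5 had 9 and 94, a ratio of 0.446 (0.198 to 0.884). Their UMIs lay mainly in the 380 barcodes without any Gsta3 UMI, which held 41 of the 53 and 65 of the 94. Igfbp5 stood at 195 CPM in Gsta3-low barcodes with a Gsta3 UMI and at 328 from 1% to under 3%. Members from 3% to under 5% stood at 150 (48.9 to 351). Among barcodes of 100 to 200, 200 to 400 and 400 or more UMIs, the Igfbp5 ratio was 0.749, 0.839 and 0. That of Igfbp2 was 0, 0 and 0.840. Spats2l (0.534, 0.394 to 0.710), the small GTPase gene Arl4c (0.597, 0.472 to 0.748), Agap1 (0.562, 0.319 to 0.933), the chondroitin synthesis gene Chpf (0.620, 0.373 to 0.980) and 2810408I11Rik (0.402, 0.126 to 0.993) completed the lowest genes. Among 11 genes of Wnt, Hedgehog and growth factor signalling, 6 had 50 or more UMIs, of which Igfbp2 and Igfbp5 were lower and none higher. Over all genes 9.46% were lower and 10.4% higher. Fzd5, a Wnt receptor, was at 1.40 (1.04 to 1.87).

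**Figure D3:**
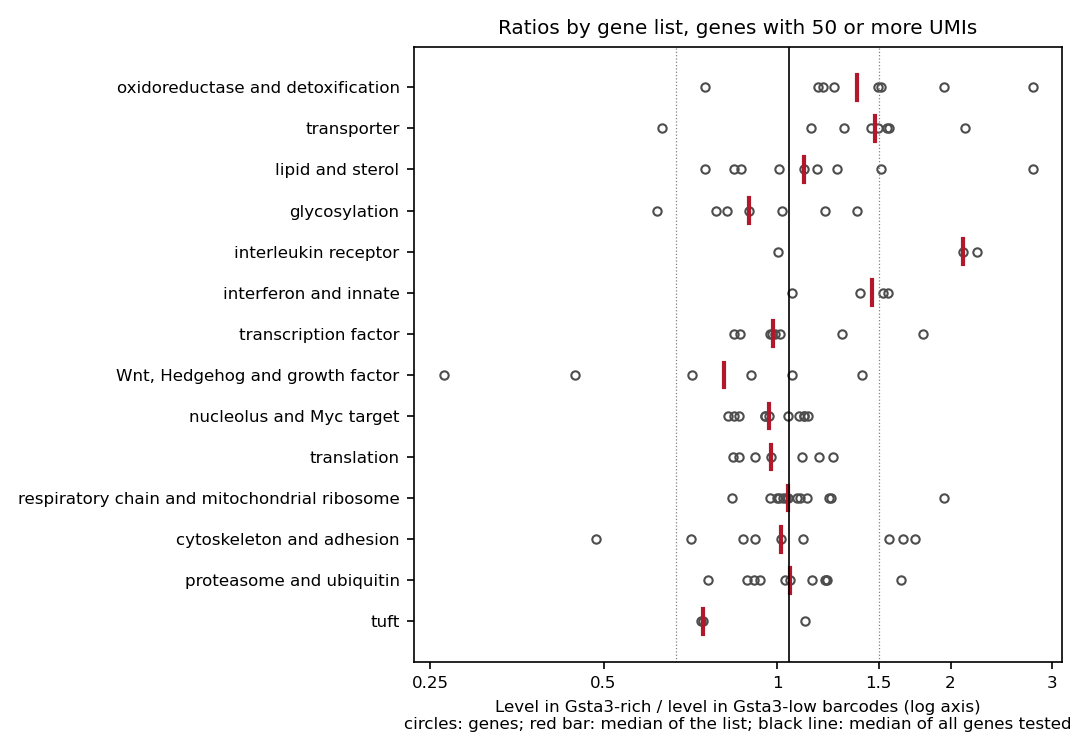
Ratio of levels, Gsta3-rich to Gsta3-low (log axis), for every gene with 50 or more UMIs in each of the 14 lists. Red bars are list medians, the black line is the median of all 222 genes (1.05) and dotted lines mark 1.5-fold either way. The interleukin receptor list has 3 genes and a median of 2.11, and the nucleolar list stays between 0.823 and 1.13.

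Markers of other cell types differed from list to list. Of 5 measured endocrine markers, Resp18, Scg2, Fev and Cryba2 had no UMI in members, and Ptprn had 7 UMIs in 3 barcodes. Scg2, Fev and Cryba2 had only 13, 16 and 14 UMIs in Gsta3-low barcodes. Resp18, of endocrine secretory granules, had 71 UMIs in Gsta3-low barcodes, so its level in members was at least 5.08-fold lower, taking 3 counts over the members as the limit for a count of 0. Of these 71 UMIs, 60 came from 3 barcodes. Of the tuft cell markers, Inpp5d had 2 UMIs in members against 43 in Gsta3-low barcodes, and Ptpn18 98 against 615, a ratio of 0.743 (0.594 to 0.921). This ratio rests on the 380 barcodes without a Gsta3 UMI, which held 393 of the 615 UMIs (4220 CPM). Gsta3-low barcodes with a Gsta3 UMI stood at 1495 CPM, below the 1926 CPM of the 99 members from 3% to under 5%. By depth class the ratio was 0.160, 0.753 and 1.11, so its direction turned in the deepest barcodes. Ptpn18 or Inpp5d was present in 43.9% of members and 36.3% of Gsta3-low barcodes. None of the 3 genes of the wider tuft list with 50 or more UMIs passed the fold in either direction. The 6 measured T cell markers were at 0 in members except Il18rap, which had 20 UMIs. The other genes, Cd28, Ctla4, Icos, Zap70 and Stat4, had only 3, 12, 4, 2 and 9 UMIs in Gsta3-low barcodes. Of 3 measured myeloid markers, Cxcr2 and Slc11a1 were at 0 in members and had only 5 and 3 UMIs in Gsta3-low barcodes. Ly96, the other one, had 131 UMIs in 86 of 157 members, so the list summed to a ratio of 1.53 (1.24 to 1.86) and was present in 54.8% of members and 38.2% of Gsta3-low barcodes. The part of such cells in the Ly96 ratio was not tested. Col3a1, Col5a2, Serpine2 and Des had no UMI in members, and 0, 1, 26 and 1 in Gsta3-low barcodes. With counts this low in the larger group, zeros in members do not show absence. Parietal, chief, pit and neck cell marker lists had no measured row and were not analysed here, so the members were given no cell type name. In 25 of 157 members (15.9%) and 157 of 812 Gsta3-low barcodes (19.3%) there were 2 or more UMIs of Ptpn18, Ccl20, Inpp5d, Resp18 or Ptprn. Without these barcodes 24 genes were higher and 13 lower, and the Slc9a4 and Idh1 ratios kept their direction.

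To set detection at equal depth, every barcode with 100 or more UMIs besides Gsta3 was thinned to 100 UMIs, using the exact hypergeometric chance of at least 1 UMI of a gene. Slc9a4 was then expected in 33.7% of members and 16.9% of Gsta3-low barcodes, against 65.0% and 36.7% unthinned. Idh1 was expected in 65.9% and 43.4%, Rdh10 in 61.1% and 44.0%, Tuba4a in 46.0% and 31.6% and Vil1 in 40.8% and 28.3%. Il1r1 was expected in 12.7% and 5.06%. Hjurp was expected in 3.49% of members and 7.65% of Gsta3-low barcodes. As a check on free RNA, 23 barcodes in which Ptpn18 made up 2% or more of UMIs (median 165 UMIs) were examined. Of these, 1 was itself a member. Slc9a4 was found in 2 of the 23 (8.70%), Gsta3 in 2, Rdh10 in 1 and Idh1 in 8, while Vil1 was found in 17. Whether these barcodes should lack the genes was not tested.

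**Figure D4:**
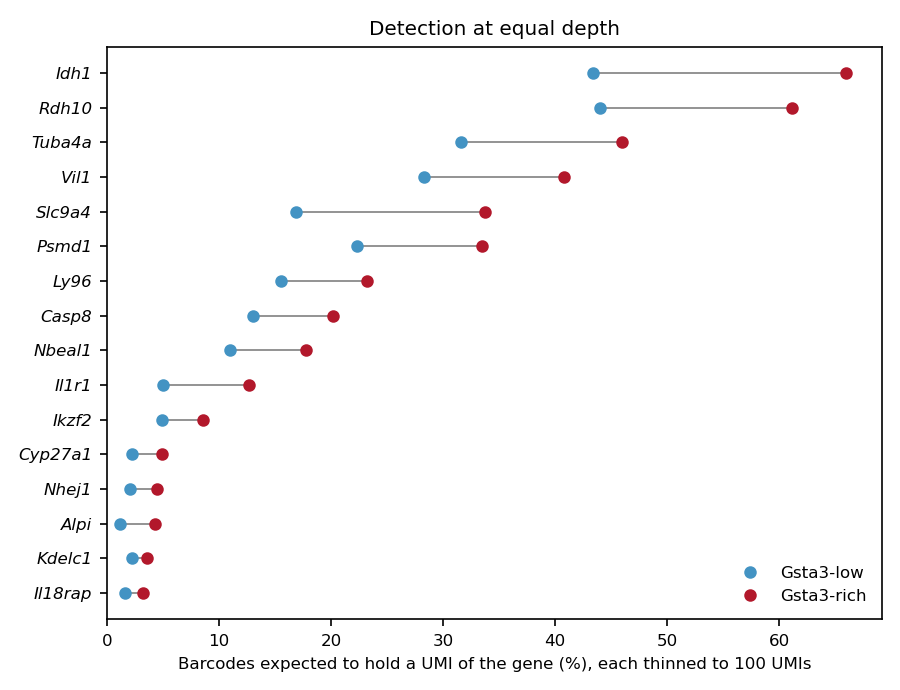
Percent of barcodes expected to hold a UMI of each gene when every barcode is thinned to 100 UMIs, in Gsta3-rich (red) and Gsta3-low (blue) barcodes. The red point lies to the right of the blue for each of the 16 genes shown, which were picked among those with a ratio of 1.5 or more, with Slc9a4 at 33.7% against 16.9%.

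Depth differed between the groups, so the ratios were also taken within depth classes. Slc9a4 had a ratio of 2.37 (1.26 to 4.15) among barcodes of 100 to 200 UMIs, 2.54 (2.02 to 3.17) from 200 to 400 and 1.64 (1.21 to 2.21) from 400 upward. Idh1 was at 1.55 (0.989 to 2.34), 1.93 (1.69 to 2.19) and 1.97 (1.70 to 2.27). Vil1 was at 1.16 (0.617 to 2.01), 1.57 (1.28 to 1.92) and 1.93 (1.57 to 2.38). Spats2l was at 1.03 in the shallowest class, from 6 UMIs in members, and at 0.470 and 0.556 in the others. Pard3b was at 1.60, 0.699 and 0.115, from 4, 5 and 1 UMIs in members. For 2810408I11Rik the ratios were 5.99, 0.597 and 0.101, from 2, 2 and 1 UMIs. The direction of both thus turned in the shallowest class, from few UMIs.

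Several of these genes changed level in steps along the Gsta3 share, outside the members too. Idh1 stood at 5959 CPM in the 380 barcodes without a Gsta3 UMI, 6595 in the 432 above 0 and under 1%, 8650 in the 419 from 1% to under 3%, 11224 in the 99 members from 3% to under 5% and 15129 in the 47 members from 5% to under 8%. The 11 members of 8% or more, too few to continue the order, stood at 11043 (7815 to 15158). Slc9a4 went from 1589 CPM without Gsta3 through 2054, 2644, 3882 and 3567 to 6684 (4237 to 10029). Rdh10 took another course. It stayed between 7888 and 8075 CPM in all barcodes under 3% and stood at 11495 and 13543 in the first steps of the members. Spats2l went from 2062 CPM without Gsta3 to 1143 in the 99 members and 793 in the 47. Of the 23 genes called higher, 19 had a level in the 419 intermediate barcodes between those of the Gsta3-low barcodes and the members. The same held for 18 of the 21 called lower. These genes were called for a large difference between members and Gsta3-low barcodes, which leaves a wide gap for the intermediate level to fall in. The share among all genes was not taken, so these counts do not show a graded course.

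**Figure D5:**
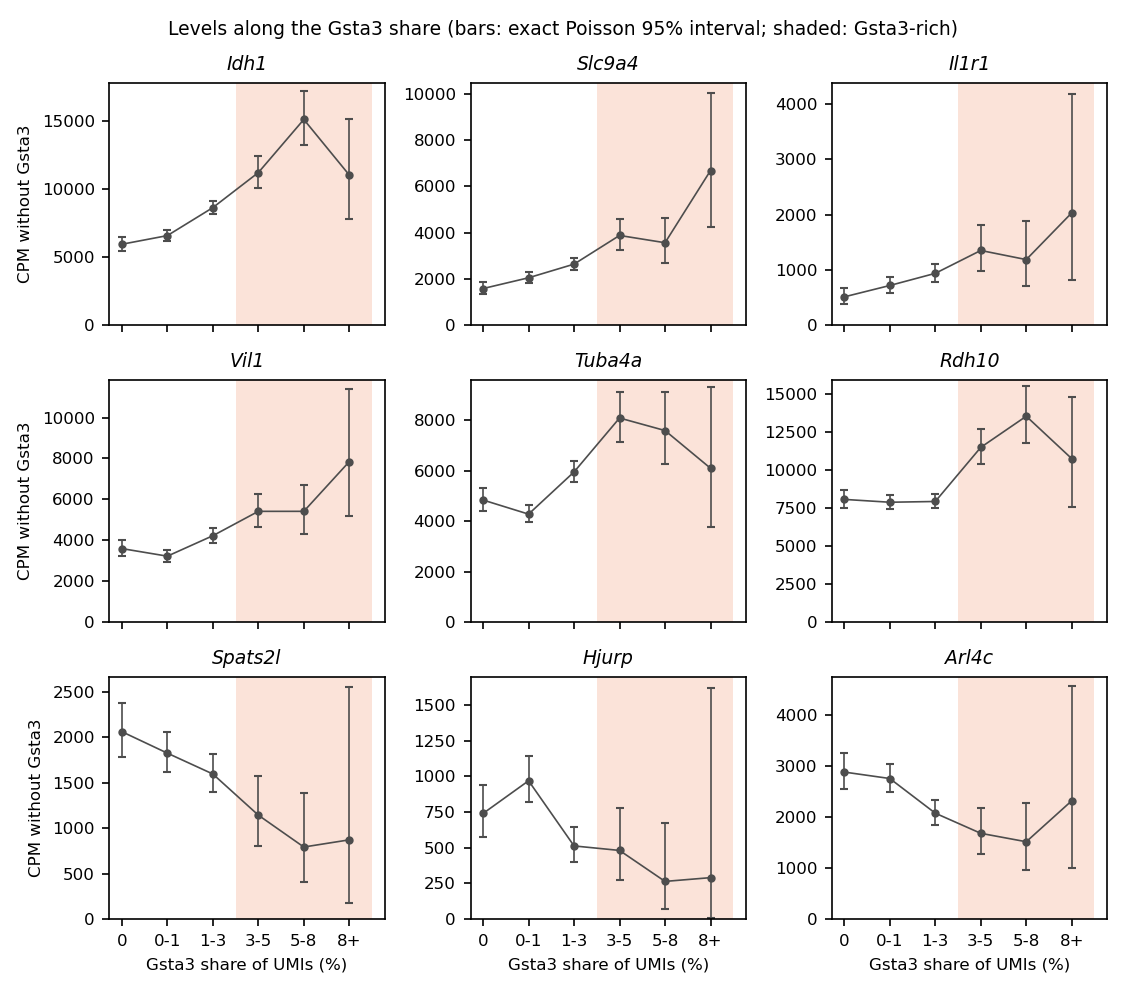
Levels (CPM without Gsta3, with exact Poisson 95% intervals) of 9 genes in 6 steps of the Gsta3 share of UMIs, with the members shaded. Idh1 and Slc9a4 are higher from step to step below 3%, Rdh10 is flat there, and the last step holds only 11 barcodes.

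Among the members themselves, the 58 with 5% or more of Gsta3 had higher Idh1 than the 99 from 3% to under 5%, with a ratio of 1.28 (1.09 to 1.502). Nbeal1 was at 1.86 (1.23 to 2.83) in the same comparison and Ncl at 0.811 (0.686 to 0.957). These 3 were picked among 112 named genes with a ratio, of which 7 had an interval above 1 and 3 an interval below 1. Alpi, also among the 7, was at 1.93 (1.09 to 3.42) from 28 and 26 UMIs, which lay in few barcodes. Slc9a4 at 1.07 (0.794 to 1.43), Il1r1 at 0.994 (0.584 to 1.66), Cyp27a1 at 0.696 (0.246 to 1.75) and Tuba4a at 0.904 (0.730 to 1.12) were within counting error. Slc9a4 divided the members in another way. It was present in 102 and absent in 55. Idh1 was at 1.05 (0.892 to 1.24). Il1r1 was higher in the 102 members with Slc9a4, at 2.42 (1.31 to 4.81) from 57 and 13 UMIs, and Tuba4a was lower, at 0.770 (0.629 to 0.943). Median totals were 316.5 and 307 UMIs, and the splitting gene was left out of the totals. The same split of Gsta3-low barcodes gave 1.84 (1.33 to 2.57) for Il1r1 and 1.01 (0.890 to 1.14) for Tuba4a. Median totals there were 312.5 and 243.5 UMIs, so higher Il1r1 was not particular to the members.

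Members with an Il1r1 UMI formed the smaller share, 52 of 157, with a median of 313.5 UMIs against 308 in the other 105. Their Slc9a4 level was 1.81 times (1.36 to 2.40) and their Rdh10 level 1.57 times (1.34 to 1.84) that of the members without. Psmd1 was at 0.726 (0.536 to 0.973) and Mcm3 at 0.258 (0.0659 to 0.739), from 4 and 28 UMIs. The same split of Gsta3-low barcodes gave 0.943 (0.752 to 1.17) for Psmd1 and 0.978 (0.662 to 1.41) for Mcm3. Alpi was at 3.07 (1.72 to 5.64) in members and 8.73 (5.92 to 13.01) in Gsta3-low barcodes, where 3 barcodes held most of its UMIs. The Rdh10 difference was as large outside the members, since Gsta3-low barcodes with Il1r1 stood at 1.58 times (1.42 to 1.76) those without. Slc9a4 was at 1.34 times (1.05 to 1.69) there, in barcodes with a median of 337 UMIs against 255.5. The genes used to split the members were chosen after their values had been seen.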

How the data were processed

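The authors deposited 1 table of raw counts, whole numbers read as UMIs, with gene symbols in rows and 1460 distinct barcodes in columns. Per the submitters' processing notes, Cell Ranger, Seurat 2.3.0 and the build mm10 were used. No source used here names a filter applied before deposit. The row Asb18 held 928 values and was left out, leaving 779 genes, and 0 value columns were unused. Barcodes of 100 or more UMIs entered, no doublet caller was run, and Gsta3 was taken out of all totals. Ratios are of summed counts, with exact 95% intervals for counting error and no p-value. A gene was called at 1.5-fold with 50 or more UMIs in both groups together. Named genes are the 4 given markers, listed genes with 50 or more UMIs, and the 12 highest and 12 lowest ratios whose interval leaves out 1. Other called genes and cell type markers were named after their values were seen. The members, the 14 lists and the alternatives were chosen with earlier results of these data known, and the strings searched before start sites after seeing the data. Python 3.11.15, numpy 2.4.6 and scipy 1.17.1 were used, and the ratio was tested on simulated data.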

Additional observations from a re-analysis of the deposited data

Results flagged for a closer look

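Barcodes under 100 UMIs, which no comparison used, also carried Gsta3. The 72 barcodes held 37 Gsta3 UMIs in 23 of them, a level of 7337 CPM (5166 to 10113) over all their UMIs, against an upper limit of 595 CPM for a count of 0. Gsta3 made up 0.734% of their summed UMIs, lower than the 1.37% in barcodes of 100 or more UMIs. In 9 of the 72 the Gsta3 share was 3% or more, each from 2 or more UMIs, beside 157 of the 1388 deeper barcodes.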

How the results depend on the processing

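The number of members follows the threshold: 22.1% of barcodes at 2% and 4.18% at 5%, against 11.3%. Each member had an exact lower bound of its Gsta3 share above 1%, so that alternative changed nothing. It is 1 of the 13 alternatives counted for each gene, and every called gene passed it by construction. Genes called higher numbered 12 with membership from 2%, 15 with 3 ribosomal protein genes out of the totals, 14 without the 3 top barcodes of each gene and 5 at 2-fold. Genes called lower numbered 32 without the top barcodes, 13 without barcodes with transcripts of other types, 35 with 20 UMIs per gene and 9 at 2-fold. Leaving out the top barcodes takes more from 157 members than from 812 others, and moved the median log2 ratio by -0.13. Against barcodes of 1% to under 3%, chosen as an alternative after seeing the data, 11 genes were higher and 6 lower, and the Idh1 difference at equal depth was 11.6 percentage points against 22.6. Past 1.5-fold in all 13 alternatives of groups, totals and weights, that intermediate group not among them, were 8 higher genes (Cyp27a1, Il18rap, Alpi, Slc9a4, Il1r1, Idh1, Nbeal1 and Tuba4a) and 8 lower (Igfbp2, 2810408I11Rik, Igfbp5, Hjurp, Pard3b, Spats2l, Arl4c and Resp18). Resp18 had 0 UMIs in members, so its ratio can hardly move and its place among them shows no stability. Pard3b and 2810408I11Rik turned direction among barcodes of 100 to 200 UMIs, from few UMIs, as given above. The Gsta3-low UMIs of Igfbp2 and Igfbp5 lay mainly in barcodes without a Gsta3 UMI, as given above. Alpi lay in few barcodes. Its level in members from 3% to under 5% was close to that of Gsta3-low barcodes with a Gsta3 UMI. Ratios that turned were Ptprn (1.11 with membership from 5%, and 1.49 without barcodes of other types, a filter that uses Ptprn), Ttll4 (1.22 from 5%), Dis3l2 (1.07 from 2%), Tmem237 (1.03 against barcodes without Gsta3), and, against 1% to under 3%, Igfbp2 (2.71, from 6 UMIs) and Slc23a3 (0.883). Apart from Ptprn without barcodes of other types, the cause of these turns was not tested. No paired analysis was possible because the barcodes carry no sample or replicate number, and for the same reason no replicate could be left out.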

Other observations

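Among genes with fewer than 50 UMIs in both groups together, chosen after their values were seen, B3gnt7, which encodes an N-acetylglucosaminyltransferase, had 18 UMIs in Gsta3-rich and 26 in Gsta3-low barcodes, a ratio of 3.23 (1.67 to 6.12). The aldehyde oxidase gene Aox1 had 6 and 4 UMIs, a ratio of 6.99 (1.66 to 33.7), while its relative Aox3 had 2 and 17, a ratio of 0.549 (0.0615 to 2.31). The decoy interleukin 1 receptor gene Il1r2 had no UMI in Gsta3-rich barcodes and 26 in Gsta3-low barcodes, with an interval of the ratio up to 0.711.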
